A study of Mus musculus with 6 samples.

Results

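The Reg genes encode small secreted C-type lectins of the gut and pancreas, and 5 of them, Reg1, Reg3a, Reg3b, Reg3g and Reg4, were followed here by their symbols among the 21950 gene symbols listed for both genotypes. The tissue was ileum, the distal stretch of small intestine, from C57BL/6 mice aged 24 weeks, 3 of them wild type and 3 TLR4ΔIEC. TLR4ΔIEC mice lack Toll-like receptor 4 (Tlr4), the receptor for bacterial lipopolysaccharide, in intestinal epithelial cells only. The promoter that drove this deletion is not given in the sources used here, and other cells of the ileum keep the gene. Each genotype was deposited as 1 column of average coverage (reads per base of a transcript) shared by its 3 mice, so each value below is that of 1 pool of mice. There was no spread between mice to set a difference against, and no test was made. Wild type and TLR4ΔIEC libraries were also pooled separately for sequencing, and genotype and sequencing pool cannot be told apart.

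Reg3b and Reg3g are made by enterocytes and Paneth cells, are secreted into the lumen, and bind and kill bacteria that come near the epithelium. Their transcription is known to rise with microbial colonisation and with the cytokine interleukin 22, which acts on epithelial cells through its receptor and the transcription factor STAT3. Reg3a is the third Reg3 gene of this group in the mouse, Reg1 was first described in pancreas, where it is linked to islet and acinar regrowth, and Reg4 marks secretory cells of the intestinal epithelium.

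The genes lie in 2 places. In GENCODE vM21 (GRCm38, the assembly behind mm10), Reg3b, Reg3d, Reg3a, Reg2, Reg1 and Reg3g follow each other over 98.2 kb of chromosome 6, from 78370657 to 78468872, and Reg4 lies on chromosome 3, from 98222156 to 98236748. Each of these genes had 6 exons, and no annotated gene overlapped any of them on either strand. Reg3b (ENSMUSG00000071356.7, 78370657 to 78373466) and Reg3a (ENSMUSG00000079516.2, 78380709 to 78383827) are on the plus strand, and Reg3g (ENSMUSG00000030017.2, 78466269 to 78468872) is on the minus strand at the far end of the cluster. Reg1 (ENSMUSG00000059654.7) spans 78422711 to 78428667 on the plus strand.

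The coding sequences of Reg3a, Reg3b and Reg3g are shown first, because the comparison below turns on telling these 3 genes apart. Exon 4 is coding and 138 bases long in each. It is printed from the GENCODE transcripts on the coding strand, with capitals at the 45 positions where the 3 genes do not all have the same base.
Reg3a (chr6:78382214-78382351, plus strand): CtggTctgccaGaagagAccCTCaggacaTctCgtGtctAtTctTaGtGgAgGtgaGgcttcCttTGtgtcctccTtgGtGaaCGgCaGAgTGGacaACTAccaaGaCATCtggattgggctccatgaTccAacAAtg
Reg3b (chr6:78372088-78372225, plus strand): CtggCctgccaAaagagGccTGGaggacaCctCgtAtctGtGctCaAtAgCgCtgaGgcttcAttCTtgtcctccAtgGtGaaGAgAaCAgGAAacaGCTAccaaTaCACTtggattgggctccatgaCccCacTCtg
Reg3g (chr6:78467476-78467613, minus strand): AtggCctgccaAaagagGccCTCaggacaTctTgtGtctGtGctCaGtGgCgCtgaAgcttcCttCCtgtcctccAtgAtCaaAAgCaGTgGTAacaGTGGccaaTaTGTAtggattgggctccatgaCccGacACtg
The 3 exons shared 93 of 138 positions. Over the whole coding sequence, identity was 76.4% between Reg3b and Reg3g, 77.2% between Reg3a and Reg3b and 73.9% between Reg3a and Reg3g, while Reg4 was 64.3% to 69.1% identical to the other members. The longest stretch with no difference between any pair of Reg transcripts was 35 bases, between Reg3b and Reg3g. Of all 25-base windows, 1.45% of Reg3b and 1.47% of Reg3g also occurred in the other of the pair, and 0 windows of Reg1, Reg3a or Reg4 occurred in a transcript of another gene. Of 50-base windows, 0 were shared by any of the 5 genes with another gene. The read length is not given in the sources used here.

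Sequence before the transcription start is shown for the 5 members because the 3 Reg3 genes had different ratios between the genotypes. The 170 bases before the RefSeq start (GRCm38.p6) are printed on the strand of the gene. Capitals mark matches, on either strand, to TTCNNNGAA (the core of STAT binding sites), TATAAA (the TATA box) or GGGNNNNNCC (a loose form of NF-κB sites).
Reg3b (chr6:78370715-78370884, plus strand): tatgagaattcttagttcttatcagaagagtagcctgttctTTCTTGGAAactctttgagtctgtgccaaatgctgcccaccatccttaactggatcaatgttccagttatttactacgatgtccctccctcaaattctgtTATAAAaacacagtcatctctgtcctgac
Reg3g (chr6:78468875-78469044, minus strand): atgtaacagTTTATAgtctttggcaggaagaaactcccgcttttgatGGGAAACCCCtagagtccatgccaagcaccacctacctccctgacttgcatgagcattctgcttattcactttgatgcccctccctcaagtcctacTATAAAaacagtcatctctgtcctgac
Reg3a (chr6:78380539-78380708, plus strand): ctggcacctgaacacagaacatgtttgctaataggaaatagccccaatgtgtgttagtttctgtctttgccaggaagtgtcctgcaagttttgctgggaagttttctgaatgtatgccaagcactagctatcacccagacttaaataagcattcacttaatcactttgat
Reg1 (chr6:78425813-78425982, plus strand): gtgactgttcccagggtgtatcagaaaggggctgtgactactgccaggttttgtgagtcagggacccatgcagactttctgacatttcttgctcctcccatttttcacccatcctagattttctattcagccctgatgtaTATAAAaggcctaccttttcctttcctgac
Reg4 (chr3:98221986-98222155, plus strand): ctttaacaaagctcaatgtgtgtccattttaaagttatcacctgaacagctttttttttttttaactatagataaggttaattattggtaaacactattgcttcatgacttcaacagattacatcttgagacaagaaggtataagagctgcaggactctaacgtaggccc
TATAAA stood 29 bases before the start of Reg3b, 27 before that of Reg3g and 30 before that of Reg1, and a match on the opposite strand began 161 bases before the start of Reg3g. Windows of the same length held TATAAA in 8.40% of 32851 RefSeq promoters. The STAT core was matched in Reg3b alone of the 5, 129 bases before the start, against 4.61% of all promoters. The NF-κB form was matched in Reg3g alone, 123 bases before the start, against 38.1% of all promoters. Reg3b and Reg3g ended in the same 20 bases, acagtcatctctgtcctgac, directly before the start. The last part of it, tgtcctgac, lay 9 bases before the start in both, and in Reg3a it lay 38 bases after the annotated start, so the printed Reg3a window is shifted upstream against the other two. The RefSeq start of Reg3b lay 228 bases downstream of the GENCODE start given above and that of Reg1 lay 3272 bases downstream, so these windows fall within the GENCODE genes. These matches describe letters in a window, and no binding was measured.

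The 5 genes ranged from among the most abundant transcripts of the ileum to a barely covered one. Levels are given as units, the coverage after both columns were put on 1 scale with a mean total of 1000000. Because coverage is per base, levels of different genes can be compared. Reg3b had 7972 units in the wild type and 10801 units in the TLR4ΔIEC column, at rank 21 and rank 15 of all genes. Reg3g had 1545 units in wild type and 3917 in TLR4ΔIEC, at rank 80 and rank 35. Reg4 had 272 and 282 units. Reg3a had 64.9 units in wild type and 37.5 in TLR4ΔIEC. Reg1 had 1.87 and 1.76 units, under the filter of a mean of 5 units that was set for ratios, so 4 of the 5 members passed it. The order Reg3b, Reg3g, Reg4, Reg3a, Reg1 was the same in both columns, and each gene exceeded the next in it by a larger factor than any member differed by between the genotypes. With 1 value per pool, no spread can be set against this order. Of the other Reg genes of the cluster, Reg3d had 0.80 units in both columns and Reg2 had 0.16 and 0.13, both far under the filter.

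**Figure D1:**
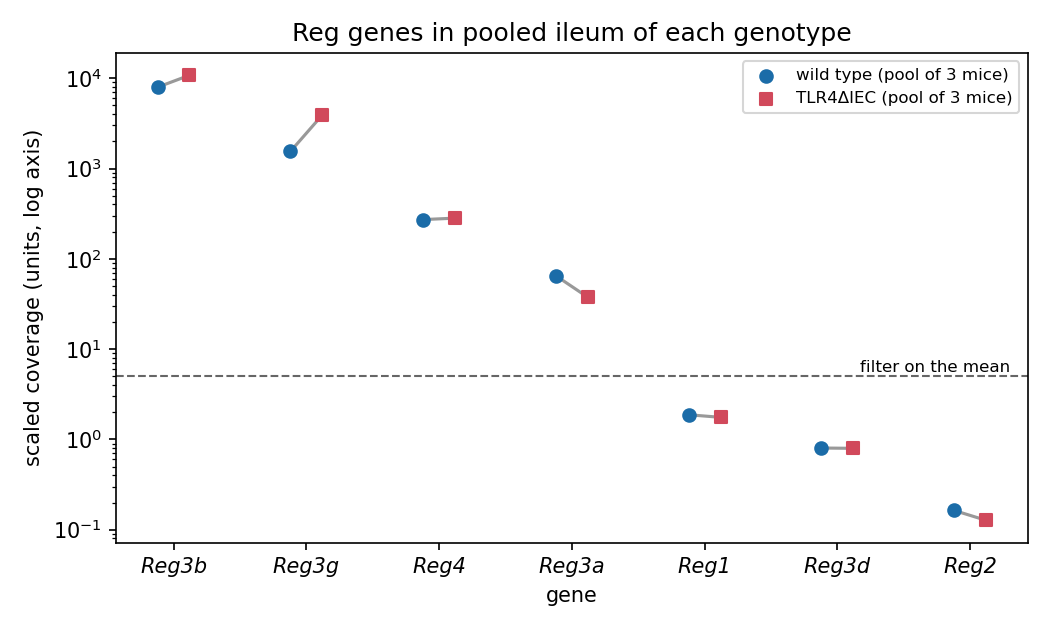
Scaled coverage (units, log axis) of the 5 members and of Reg3d and Reg2 in the wild type pool (circles) and the TLR4ΔIEC pool (squares), 1 value per pool of 3 mice, with a dashed line at the filter of 5 units. Reg3g moves from 1545 to 3917 units and Reg3a from 64.9 to 37.5, while Reg1, Reg3d and Reg2 lie under the line.

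Reg3g was 2.53-fold higher in the TLR4ΔIEC pool and Reg3a 1.71-fold lower, with Reg3b 1.35-fold higher and Reg4 nearly level. The folds are ratios of units plus a pseudocount of 1. The deposited coverage of Reg3g was 1055 reads per base in wild type and 2805 in TLR4ΔIEC, and its log2 ratio (TLR4ΔIEC over wild type) was 1.34. That of Reg3b was 5443 and 7735 reads per base, a log2 ratio of 0.44. That of Reg3a was 44.3 and 26.9 reads per base, a log2 ratio of -0.77. That of Reg4 was 186 and 202 reads per base, a log2 ratio of 0.05. Of the 4 members that passed the filter, 3 had a ratio above 0 and 1 below, 1 was higher by 2-fold or more and 0 were lower by as much. Over all 8888 genes that passed, 1.29% were higher by 2-fold or more, 2.79% were lower by as much, and 52.6% had a ratio above 0. Higher genes were 31.7% of those that differed by 2-fold, and between 40.6% and 44.9% when the columns were scaled to their totals, to the totals without the 50 highest genes, to epithelial markers or not at all. The median log2 ratio was 0.25 over the 4 members and 0.03 over all genes, with a standard deviation of 0.48 across genes. The 4 members thus did not move as a block, and their median lies between genes that differ in opposite directions.

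The place of each member among all genes differed as much. The log2 ratio of Reg3g was exceeded by 47 of the 8888 genes. Reg3b was exceeded by 1110 genes and Reg4 by 4160, and 498 genes had a lower ratio than Reg3a. Among the 129 genes with a mean of 1000 units or more, 3.10% were higher by 2-fold or more and 6.98% were lower by as much. In that group 1 gene, the mucosal pentraxin Mptx2 (log2 ratio 1.70), had a higher ratio than Reg3g, and 14 had a higher ratio than Reg3b. Across those 129 genes the log2 ratio had a standard deviation of 0.56, above the ratio of Reg3b and below that of Reg3g. This is a spread between genes and does not measure the spread between mice.

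**Figure D2:**
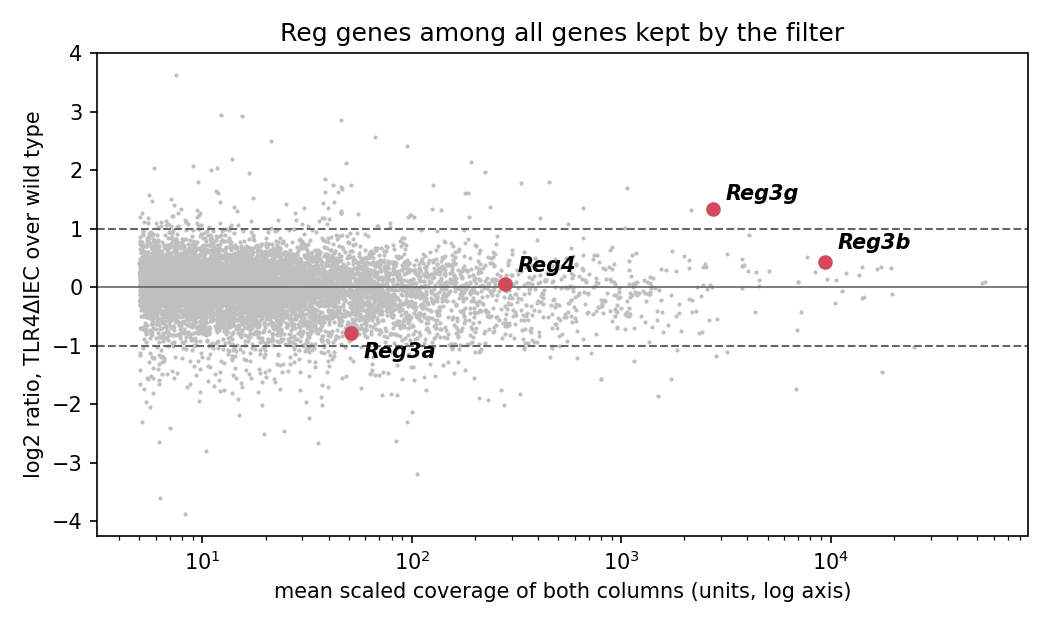
Log2 ratio of TLR4ΔIEC over wild type against mean scaled coverage (units, log axis) for the 8888 genes that passed the filter (grey points) and the 4 Reg genes among them (red points), with dashed lines at 2-fold. Reg3g at 1.34 sits above the upper line among very abundant genes, Reg3b at 0.44 and Reg4 at 0.05 inside the lines, and Reg3a at -0.77 near the lower line.

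Ratios between members within a column need no scaling, but they restate the coverage given above and are no further support. Reg3b coverage was 5.16 times that of Reg3g in wild type and 2.76 times in TLR4ΔIEC. Reg3g coverage was 23.8 times that of Reg3a in wild type and 104 times in TLR4ΔIEC, a 4.38-fold difference between the columns. Against Reg4, Reg3g coverage went from 5.68 to 13.9 times. These ratios show unequal differences and do not say which gene of a pair differed. The 5 genes together held 0.962% of the summed coverage of the wild type column and 1.54% of the TLR4ΔIEC column. Reg3b made up 80.9% of the units of the 5 genes in wild type and 71.8% in TLR4ΔIEC, and Reg3g 15.7% and 26.0%.

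The order of the genes along the cluster did not match the order of their ratios. Reg3b and Reg3a, which start 10.1 kb apart and lie on the same strand, had ratios of opposite sign. Reg3g, the gene with the highest ratio, lies 95.6 kb from the start of Reg3b, measured to its nearer end. The 3 genes between Reg3a and Reg3g or between Reg3b and Reg3a, namely Reg3d, Reg2 and Reg1, were all under the filter in both columns.

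**Figure D3:**
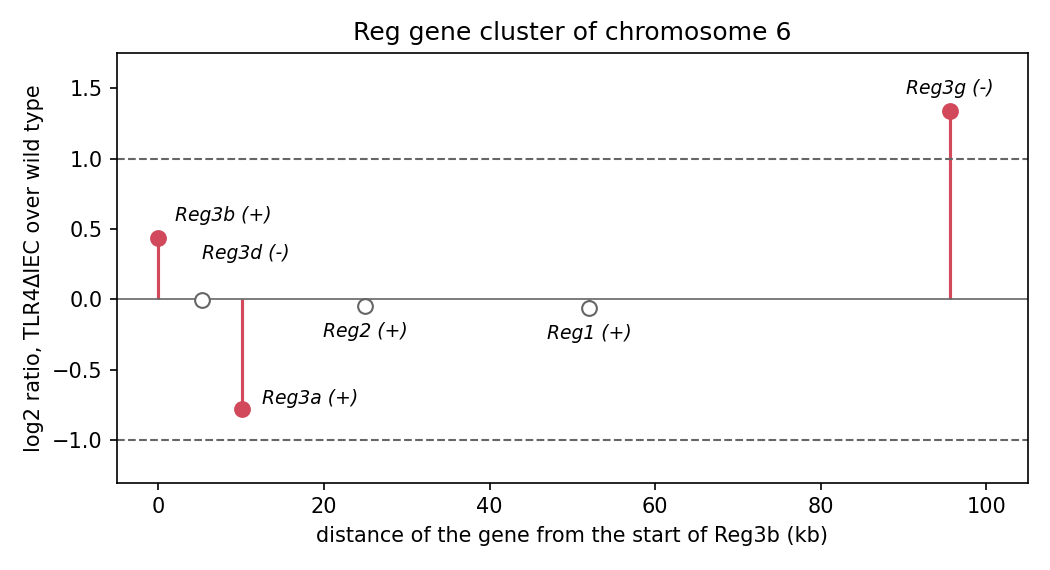
Log2 ratio of TLR4ΔIEC over wild type for the 6 Reg genes of chromosome 6 against the distance of each gene from the start of Reg3b (kb), with the strand in brackets and dashed lines at 2-fold. Filled points passed the filter and open points did not. The highest ratio (Reg3g, 1.34) and the lowest (Reg3a, -0.77) belong to genes at different places of the cluster.

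The deposited averages, being whole numbers of bases over a length, could be traced back to summed bases of reads. The averages of Reg4 were whole numbers of bases over 1021, the spliced length of its GENCODE transcript, with 189727 bases in wild type and 206477 in TLR4ΔIEC. Those of Reg3a were over 837 bases in both columns, with 37111 and 22504 bases. For Reg3b the averages fit a length of 759, with 4131182 and 5870518 bases, although the wild type average alone gave only a divisor of it, 69. For Reg3g they fit 774, with 816718 and 2170984 bases, but the divisors found were 387 and 9, so its length is the least certain of the 5. Reg1 had different lengths behind its 2 averages. Its TLR4ΔIEC average ran over all 769 bases of its transcript (967 bases of reads), and its wild type average ran over 657 (841 bases of reads), which equals the transcript without exon 5 of 112 bases. Taken over 769 bases in both columns, the coverage of Reg1 was 1.09 (wild type) and 1.26 (TLR4ΔIEC), and its log2 ratio went from -0.06 to 0.08. No direction can be given for Reg1. Without a read length these sums cannot be turned into read numbers, so no counting interval is given.

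The genes with levels most like each member in both columns were taken as the 3 nearest by Euclidean distance of log2(units + 1), over 2 pooled columns only. Nearest to Reg3b were lysozyme (Lyz1, distance 0.22), Defa3 (0.24) and Defa17 (0.35), alpha-defensins of Paneth cells whose near-identical copies make single values uncertain. Nearest to Reg3g were the small nucleolar RNA Snord35a (0.49, with 1222 and 3063 units), Tmsb4x (0.67) and the goblet cell gene Spink4 (0.70). The last 2 had log2 ratios of 0.40 and 0.35, under that of Reg3g, and they are its neighbours by level alone. Nearest to Reg3a were Serinc2 (0.0069), Vnn1 (0.038) and Crb3 (0.063), with log2 ratios from -0.77 to -0.69. Nearest to Reg4 were Scarna17 (0.05), Snord110 (0.07) and Cyb5 (0.07).

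Genes that act upstream of Reg3 transcription and passed the filter differed by less than 2-fold between the pools, apart from Il22ra1. Of 19 listed cytokines and receptors that signal to STAT3, 4 passed the filter. Of these, 0 were higher by 2-fold or more and 1 was lower by as much. The median log2 ratio was -0.20, or -0.024 with no filter. It was -0.43 over genes with compatible recovered lengths, meaning that the length found for 1 column divided that found for the other. The lower gene was Il22ra1, the epithelial chain of the interleukin 22 receptor, with 43.2 wild type and 20.6 TLR4ΔIEC units and a log2 ratio of -1.04. It fell short of 2-fold under every other scaling and with a pseudocount of 5, where its log2 ratio lay between -0.999 and -0.917. Il10rb, the shared chain of that receptor, was at -0.43. The other 2 genes of this list that passed were above 0, Il6st at 0.53 and Il11ra1 at 0.02. Interleukin 22 itself (Il22) had 0.07 and 0.10 units, too low for a ratio. Of 8 genes of JAK and STAT3 signalling 7 passed, 0 differed by 2-fold and the median was -0.02. That median has no fixed sign, being 0.083 when scaled to totals without the 50 highest genes and 0.35 with a filter at 20 units. Stat3 was at 0.27 and its feedback inhibitor Socs3 at -0.47. Of 33 genes of bacterial sensing and NF-κB signalling 22 passed, 0 differed by 2-fold and the median was 0.08, or -0.23 with a filter at 20 units. Of the 22, 13 were above 0 and 9 below. The largest difference in that list at 20 units or more was that of the NF-κB subunit Relb (-0.85). Under 20 units, Tlr1 (3.58 wild type and 7.50 TLR4ΔIEC units) was at 0.89 and Cd14 (10.8 and 19.3 units) at 0.78. Tlr1 and Tlr3 (4.86 wild type and 7.98 TLR4ΔIEC units) passed the filter only through the TLR4ΔIEC pool. The kinase adaptor Tab2 was at 0.33 and Ticam1, an adaptor of Tlr3 and Tlr4, at -0.33, while the adaptor Myd88 was at -0.10. The coverage of Tlr4 itself was 1.98 reads per base (wild type) and 1.60 (TLR4ΔIEC), an average over all exons and all cells of the tissue that cannot check an epithelial deletion. Extl3, described as a receptor for Reg proteins, was at 0.35.

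Other genes known to respond to interleukin 22 or STAT3 in epithelium were split, as the Reg genes were. Of 17 listed in both columns 10 passed the filter, 5 were higher by 2-fold or more and 0 lower by as much. Over all genes that passed, 1.29% were higher and 2.79% lower by as much. Under the filter, S100a9 (3.57 wild type and 0.59 TLR4ΔIEC units) was lower and Saa2 (1.33 and 5.27) higher by more than 2-fold. The median log2 ratio of the 10 was 0.76. The median was 0.24 with a filter at 1 unit, with none or over genes with compatible recovered lengths, and 1.27 with a filter at 20 units. The 5 were Retnlb (2.19), a goblet cell product that acts on bacteria, the scavenger receptor Dmbt1 (1.79), the serum amyloids Saa1 (1.61) and Saa3 (1.53), and the nitric oxide synthase Nos2 (1.27). Retnlb and Saa3 had means under 20 units and were named after their values were seen. Retnlb had 4.33 wild type and 23.4 TLR4ΔIEC units, so it passed the filter only through the pool where it was high. The oxidase Duox2 was at 0.24 and its partner Duoxa2 at 0.07, and Cebpd, Socs3 and Bcl3 had ratios below 0. The list was chosen with earlier results of these data known, and its count is no independent evidence of its direction.

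Other secreted antimicrobial proteins had ratios above 0, apart from Zg16 and Pglyrp1 (-0.09). Of 13 such genes that passed the filter, 5 were higher by 2-fold or more and 0 lower by as much, with a median of 0.35 (0.23 with no filter). Retnlb, which passed the filter only through the TLR4ΔIEC pool, is in this list and the one before. Defb1 (4.69 wild type and 7.42 TLR4ΔIEC units) also passed only through that pool. In the Paneth cell list below are 5 genes of this list. Lyz1 had 9118 and 10116 units, a log2 ratio of 0.15. The lectins Itln1 and Zg16 had ratios of 0.02 and -0.72, Lypd8, which binds flagella, 0.29, and Ang4 0.35. Zg16 had 8559 and 5182 units, so of 2 lectins with close wild type levels, Reg3b was higher and Zg16 lower in the TLR4ΔIEC pool. The 5 higher genes were Retnlb, Mptx1 (1.72), Mptx2 (1.70), the protease inhibitor Slpi (1.42) and the macrophage lysozyme Lyz2 (1.01). Mptx1 and Mptx2 are relatives whose sequences were not compared here, so their single values may be uncertain.

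Markers of the cells that make Reg proteins are given beside these ratios. In bulk tissue, fewer cells of a type and less RNA per cell cannot be told apart. All 18 listed Paneth cell genes passed the filter, 1 (Mptx2) was at least 2-fold higher, 15 had ratios above 0, the median was 0.24, and they summed to 140544 (wild type) and 150230 units (TLR4ΔIEC). Relative to Lyz1, Reg3g coverage went from 0.169 to 0.387 times. Of 14 pan-epithelial genes 0 differed by 2-fold, with a median of -0.07 (0.04 when scaled to totals without the 50 highest genes) and sums of 9697 and 9242 units. Relative to villin (Vil1), Reg3g coverage went from 2.63 to 6.71 times, Reg3b from 13.6 to 18.5 times, Reg4 from 0.463 to 0.484 times and Reg3a from 0.110 to 0.0643 times. Vil1 itself had a log2 ratio of -0.011, so these ratios nearly repeat the scaled levels and are no separate check. Other pan-epithelial genes ran from -0.65 (Cldn7) to 0.43 (Krt19), beside 0.44 for Reg3b and 0.05 for Reg4. Against Krt19, Reg3b would thus be nearly level and Reg4 lower.

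Markers of position along the villus and along the gut are given for the same reason. Reg3b and Reg3g are known to be highest at the bottom of the villus. Of 6 villus tip genes that passed, 5 were at least 2-fold lower, all 6 were below 0 and the median was -1.60, with adenosine deaminase (Ada) at -2.31 and Creb3l3 at -1.83, and the list summed to 1033 and 405 units. The 4 villus bottom genes had a median of 0.09 and sums of 4242 and 4820 units, with Ccl25 at -0.83 and Nlrp6 at 0.07. Lypd8, also in the antimicrobial list, held 3644 wild type and 4444 TLR4ΔIEC units of these sums. The defining ileal gene Fabp6 had 15336 and 13616 units, and the 8 distal genes had a median of -0.46 with 0 differing by 2-fold. Of 6 proximal genes, Fabp1 (-3.20) and Rbp2 (-1.82) passed the filter, both at least 2-fold lower, and the list summed to 707 and 167 units. Proximal and most distal genes were thus both lower, and the villus bottom genes had ratios on both sides of 0. The part of these markers in the Reg ratios was not tested.

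Reg4 is a gene of secretory cells, and several secretory markers differed more than it did. Of 10 enteroendocrine genes that passed, 3 were at least 2-fold lower (Sct at -1.75, Nts at -1.72 and Pyy at -1.36), with a median of -0.69 and sums of 737 and 343 units. Another 3 had ratios above 0, Tac1 at 0.97, Sst at 0.17 and Gcg at 0.002. In the main setting 0 were at least 2-fold higher, as with quantile normalization. With columns scaled to their totals, to epithelial markers or not at all, 1 gene of this list was at least 2-fold higher. Chga had 10.7 and 5.88 units. Of 7 goblet cell genes that passed, 0 differed by 2-fold, with a median of -0.28 and sums of 15315 and 11219 units. Tff3 was at -0.76 and Agr2 at 0.29. The log2 ratio of Reg4 was 0.05.

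Pancreas, the other main source of Reg1 and Reg2, left little signal. Of 20 listed pancreatic genes in both columns, 18 were under the filter, at 5.24 units or less. The lipase Pnliprp2 (101 and 107 units) and the elastase Cela1 (6.89 and 11.1 units) passed. The insulin genes Ins1 and Ins2 were at 0.12 units or less, and of the trypsin genes Prss1 was listed in the wild type column only and Prss2 and Prss3 in the TLR4ΔIEC column only.

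Most markers of plasma cells, macrophages, T cells and red blood cells were higher in the TLR4ΔIEC pool, as Reg3g and Reg3b were. Of 5 plasma cell genes 3 were at least 2-fold higher, with a median of 1.16 and sums of 412 and 1010 units. Among these 3, Tnfrsf17 had 3.69 wild type and 15.3 TLR4ΔIEC units and passed the filter only through the latter. Of 5 macrophage genes that passed 1, Lyz2, was at least 2-fold higher (median 0.71, sums of 903 and 1677 units). Lyz2, also in the antimicrobial list, held 690 and 1389 of these units, and C1qa was at -0.08. All 4 T cell genes that passed were above 0 (median 0.66, sums of 36.8 and 62.5 units). Among these, Cd3d (4.48 wild type and 6.59 TLR4ΔIEC units) passed the filter only through the TLR4ΔIEC pool. The 6 globin genes that passed were all at least 2-fold higher (sums of the red blood cell list of 259 and 593 units), and their copies share sequence, so they are not separate measurements. The 5 adipocyte genes that passed were all below 0 (median -1.45, sums of 230 and 111 units). Of these, Adipoq (9.62 wild type and 3.42 TLR4ΔIEC units) and Cfd (13.4 and 3.44) passed the filter only through the wild type pool. Of 12 genes of innate lymphoid and Th17 cells, the sources of interleukin 22, 3 passed and 0 differed by 2-fold, and Il17a had 0.65 and 0.78 units. No neutrophil gene passed the filter, and smooth muscle genes had a median of 0.11 with 0 of 6 differing by 2-fold. The part of these cells in the Reg ratios was not tested.

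**Figure D4:**
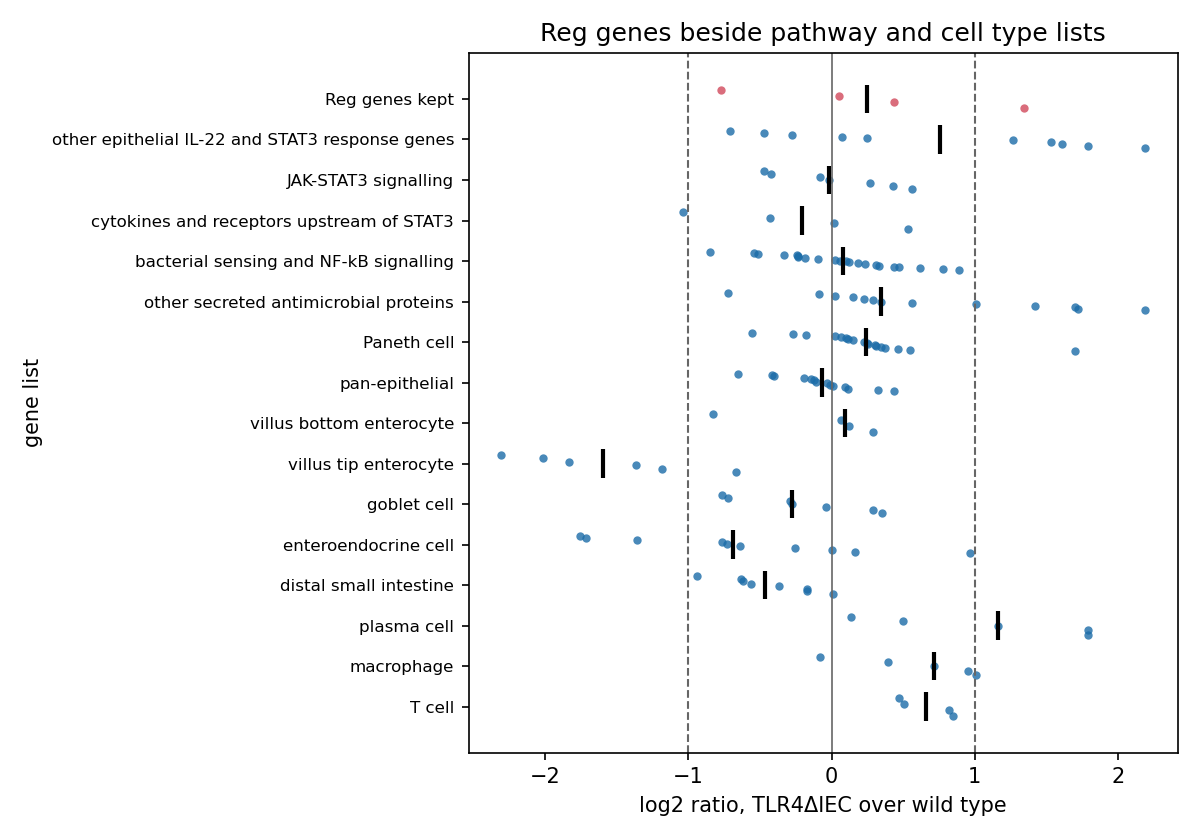
Log2 ratio of TLR4ΔIEC over wild type for each gene that passed the filter (points) in the 4 Reg genes (top row) and in 15 pathway and cell type lists, with the median of each row as a black bar and dashed lines at 2-fold. The Reg row runs from -0.77 to 1.34, while the JAK and STAT3 row stays within 2-fold and the villus tip row lies below 0.

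The 4 members that passed kept the direction of their ratio in all 9 other settings run for each. The log2 ratio of Reg3g lay between 1.32 and 1.45, that of Reg3b between 0.44 and 0.54, that of Reg3a between -0.79 and -0.67 and that of Reg4 between 0.05 and 0.22.

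**Figure D5:**
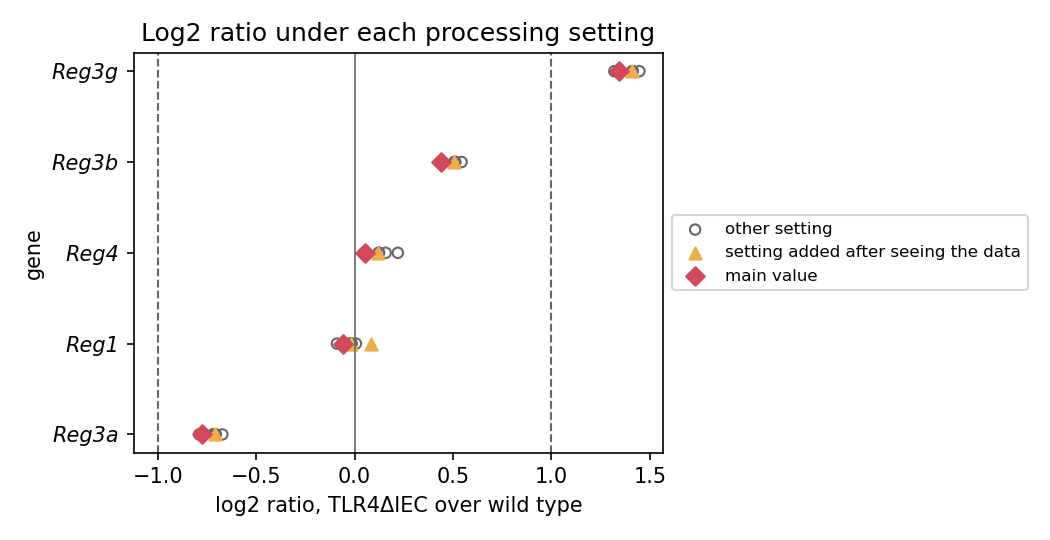
Log2 ratio of TLR4ΔIEC over wild type for each of the 5 members in the main setting (diamonds), in other settings (open circles) and in settings added after seeing the data (triangles), with dashed lines at 2-fold. Reg3g stays above the 2-fold line (1.32 to 1.45), Reg3a stays below 0, and Reg1 lies on both sides of 0.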

How the data were processed

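Whole-transcriptome libraries from ileum RNA depleted of ribosomal RNA were sequenced on an Ion system, per the labels' protocols. The deposited unit is average coverage (reads per base) per RefSeq entry, per the file headers, 1 column per genotype. TopHat2 2.0.10, Bowtie2 2.1.0 and mm10 are named without roles in the submitters' processing notes; the sources used here do not give the tool behind the averages. The columns listed 22724 and 22687 entries with sums of 699800 and 698473; 22001 were in both. A repeated symbol took its highest entry. Columns were scaled by the median of ratios (factor 1.05) to a mean total of 1000000 units. Log2 ratios used a pseudocount of 1 and genes with a mean of 5 units or more (a wild type coverage of 3.41, and 3.58 in TLR4ΔIEC). The pseudocount understates ratios of weak genes. Depth in reads is unknown, and no interval is given. The planned test across mice was not possible with pooled columns.

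Members and lists were chosen with earlier results of these data known. Named genes were the members, Reg2, Reg3d, genes that define a list, up to 4 genes per list with the largest absolute ratio at 20 units or more, and the 3 nearest genes per member; others were chosen after their values were seen. Promoters of all 7 Reg genes were found in RefSeq (GRCm38.p6). Python 3.11.15, numpy 2.4.6, pandas 2.3.3 and biopython 1.88 (global alignment) were used. The ratio step was tested on simulated data. Alternatives were other scalings, pseudocounts, filters, handling of repeated symbols and recovered lengths.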

Additional observations from a re-analysis of the deposited data

How the results depend on the processing

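No paired analysis was possible because each genotype has 1 pooled column, and for the same reason no replicate could be left out. In all 12 other settings, 1 of the members that passed the filter was higher by 2-fold or more and 0 lower by as much. Reg1 passed only with a filter at 1 unit and with none. Over all genes in those settings (3682 to 21950 genes), 58 to 222 were higher and 130 to 395 lower by 2-fold or more. When the columns were scaled to totals that leave out the 50 highest genes, the log2 ratio was -0.67 for Reg3a, 0.54 for Reg3b, 1.45 for Reg3g and 0.16 for Reg4, and the list median was 0.083 for JAK and STAT3 signalling, 0.86 for interleukin 22 and STAT3 response genes and 0.45 for secreted antimicrobial proteins. Quantile normalization gave 0.22 for Reg4 and 0.50 for secreted antimicrobial proteins. The settings added after seeing the data were scaling to epithelial markers and averaging Reg1 over its full length, which put Reg1 at 0.083. Leaving the 50 highest other genes out of the sum, the members held 1.82% (wild type) and 2.94% (TLR4ΔIEC). A pseudocount of 5 left 65 genes higher and 146 lower by 2-fold or more. Filters gave 206 and 380 at 1 unit, 58 and 130 at 20 units, and 222 and 395 without any. For list medians, filters at 1 unit, at 20 units and none gave 0.11, 0.35 and 0.11 for JAK and STAT3 signalling and 0.24, 1.27 and 0.24 for response genes. Upstream cytokines and receptors were at -0.10 at 1 unit and -0.024 unfiltered, sensing genes at -0.23 at 20 units, and antimicrobial proteins at 0.23 unfiltered. Genes with compatible recovered lengths gave -0.43 for upstream cytokines and receptors and 0.24 for response genes. The filters change which genes enter a median; for the other settings the cause was not tested. Pooled mice and the unknown read length limit each value, since neither spread between mice nor counting error can be given.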
